A study of Mus musculus with 69 samples.

Results

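The genes examined here are 10 imprinted genes that are expressed from the paternal copy: Ndn, Magel2, Peg3, Mest, Sgce, Peg13, Nnat, Zrsr1, Slc38a4 and Sfmbt2. They were chosen by name, as paternally expressed genes at several loci. All 10 are among the 16263 genes of the count table and among the 14061 genes tested. The study asked how mouse embryonic stem cells (ESCs) transcribe their genes when lysine 27 of histone H3.3 can no longer be acetylated or methylated. mRNA-seq and ATAC-seq, an assay of open chromatin, were each performed on 6 libraries, 2 from wild-type (WT) J1 cells, 2 from the H3.3K27R clone Mut18 and 2 from the H3.3K27R clone Mut43. In both, all endogenous copies of H3f3a and H3f3b, the genes that encode H3.3, had been edited to carry arginine in place of that lysine. WT and mutant cells share the J1 line, derived from the inner cell mass of a 129S4/SvJae blastocyst, so the parental copies cannot be told apart by strain and each value below is the sum over both copies. Cells were grown on feeders and passaged without feeders before harvest. Each mutant line is a single clone, and the 4 mutant libraries are therefore duplicates of 2 clones and not 4 independent edits. The libraries of a line are described as biological replicates, without the number of separate cultures or passages, so the p-values measure the spread between these libraries.

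Imprinted genes are transcribed from 1 parental copy, because a mark laid down in the egg or the sperm is kept on that copy after fertilization. At most of these loci the maternal copy carries DNA methylation at a control region near the promoter, which zinc finger proteins such as ZFP57 help to keep. At a smaller set, with Sfmbt2 and Slc38a4 among them, a maternal H3K27me3 domain has been described in the early embryo. Several of the 10 genes are best known from brain or placenta and are expressed at modest levels in ESCs.

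Totals of the count table lay between 14992756 and 15143998 counts per library. Within each line the replicates differed beyond sampling noise, the chi-square per gene being 1.78 to 3.19 over the 3 lines, so no library was a copy of another. Genes on chromosome 11 were shifted together in the mutants, with a median log2 fold change of 0.39 over 933 genes, and this touches Zrsr1. WT replicate 1 held more fibroblast transcripts than the other libraries, which is given beside the genes it touches. Markers of ESCs were present in every library, with a summed level of 3880 and 4004 CPM (counts scaled to a common library size) in WT and of 4383 to 4615 CPM in the mutants. Of 10 such markers, 9 were higher and 1 was lower in the mutants by edgeR's quasi-likelihood test at an adjusted p under 0.05, led by Zfp42 (log2 fold change 0.72) and Esrrb (0.41), while Pou5f1 fell (-0.27). Over all tested genes 23.5% were called higher and 24.5% lower.

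The sequences below are a selection from those at which the expression and chromatin data can be read together. The windows of Ndn and Peg3 and 1 window of Slc38a4 also carry a peak in all 6 lists and are not shown. Peg13 is shown as the middle 300 bases of the open region at its start, chr15:72810046-72810345 of GRCm38 (mm10) on the minus strand, which had a peak in the WT lists only. Magel2, Zrsr1, Sfmbt2 and Mest are shown as the 250 bases before a RefSeq start (GRCm38.p6, plus strand) that carries a peak in at least 5 of the 6 lists, at chr7:62376729-62376978, chr11:22971755-22972004, chr2:10372186-10372435 and chr6:30737800-30738049. Capitals mark CpG dinucleotides, the sites of DNA methylation.
Peg13: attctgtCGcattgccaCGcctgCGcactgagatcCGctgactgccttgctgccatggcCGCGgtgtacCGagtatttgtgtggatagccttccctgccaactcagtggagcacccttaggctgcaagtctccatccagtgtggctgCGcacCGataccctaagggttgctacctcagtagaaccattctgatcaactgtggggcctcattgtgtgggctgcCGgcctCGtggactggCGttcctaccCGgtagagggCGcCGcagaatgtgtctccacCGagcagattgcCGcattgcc
Magel2: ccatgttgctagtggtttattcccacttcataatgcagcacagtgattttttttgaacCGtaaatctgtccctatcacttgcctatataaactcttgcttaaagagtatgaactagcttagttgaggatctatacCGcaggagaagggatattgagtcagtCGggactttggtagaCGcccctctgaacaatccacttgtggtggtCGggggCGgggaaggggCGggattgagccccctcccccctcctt
Zrsr1: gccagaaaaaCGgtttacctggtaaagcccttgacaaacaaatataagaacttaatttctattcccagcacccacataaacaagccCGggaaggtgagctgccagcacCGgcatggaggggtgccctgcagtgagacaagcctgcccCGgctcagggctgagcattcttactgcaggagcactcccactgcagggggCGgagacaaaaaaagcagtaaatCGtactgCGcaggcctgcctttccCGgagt
Sfmbt2: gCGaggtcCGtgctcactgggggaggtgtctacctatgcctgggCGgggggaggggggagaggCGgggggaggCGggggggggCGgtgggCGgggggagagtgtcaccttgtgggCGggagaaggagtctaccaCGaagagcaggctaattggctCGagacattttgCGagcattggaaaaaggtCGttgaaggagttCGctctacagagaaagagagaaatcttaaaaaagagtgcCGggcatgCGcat
Mest: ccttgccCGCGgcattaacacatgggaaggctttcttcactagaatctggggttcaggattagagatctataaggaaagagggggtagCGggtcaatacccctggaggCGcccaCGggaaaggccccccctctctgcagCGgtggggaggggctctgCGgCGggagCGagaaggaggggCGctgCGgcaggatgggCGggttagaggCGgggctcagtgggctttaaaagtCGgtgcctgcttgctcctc
The Peg13 stretch held 17 CpGs and the whole 568-base region held 32. In RefSeq windows of 300 bases around a start (250 before and 50 after), the median over 32851 windows of all genes was 7 CpGs, against 10 for Magel2, 10 for Zrsr1, 16 for this start of Sfmbt2 and 17 for this start of Mest. Fewer than 10 CpGs were held by 56.5% of all windows, and fewer than 17 by 68.6%. Among genes not printed, the windows of Ndn, Peg3 and Nnat held 11, 13 and 17, and each window of Slc38a4 held 5. The hexamer bound by ZFP57, TGCCGC, searched on both strands, occurred 1 time in the Peg13 stretch and 3 times in its whole region. It occurred 2 times in the Mest window and 1 time in the Nnat window, and was not found in the windows of the other genes or in the other Mest window that was not next to this start. Of all promoter windows 11.6% held it. In all, 8 of the 10 genes had RefSeq windows, 13 windows together, and each was identical to the genome at its coordinates.

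Between WT and mutant ESCs the 10 genes did not move in 1 direction. Peg13, Magel2, Nnat and Ndn fell by more than 2-fold, and Mest fell slightly. Sfmbt2 and Zrsr1 rose about 2-fold. Peg3, Sgce and Slc38a4 did not pass the test. With edgeR's quasi-likelihood test over all 14061 genes and Benjamini-Hochberg adjustment at 0.05, 2 of the 10 genes were higher and 5 were lower, where 23.5% of all tested genes were called higher and 24.5% lower. With a further requirement of a 2-fold change, 1 was higher and 4 were lower, against 3.28% and 5.65% of all tested genes. Over the 10 genes the log2 fold changes had a median of -0.20, against -0.004 over all tested genes.

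**Figure D1:**
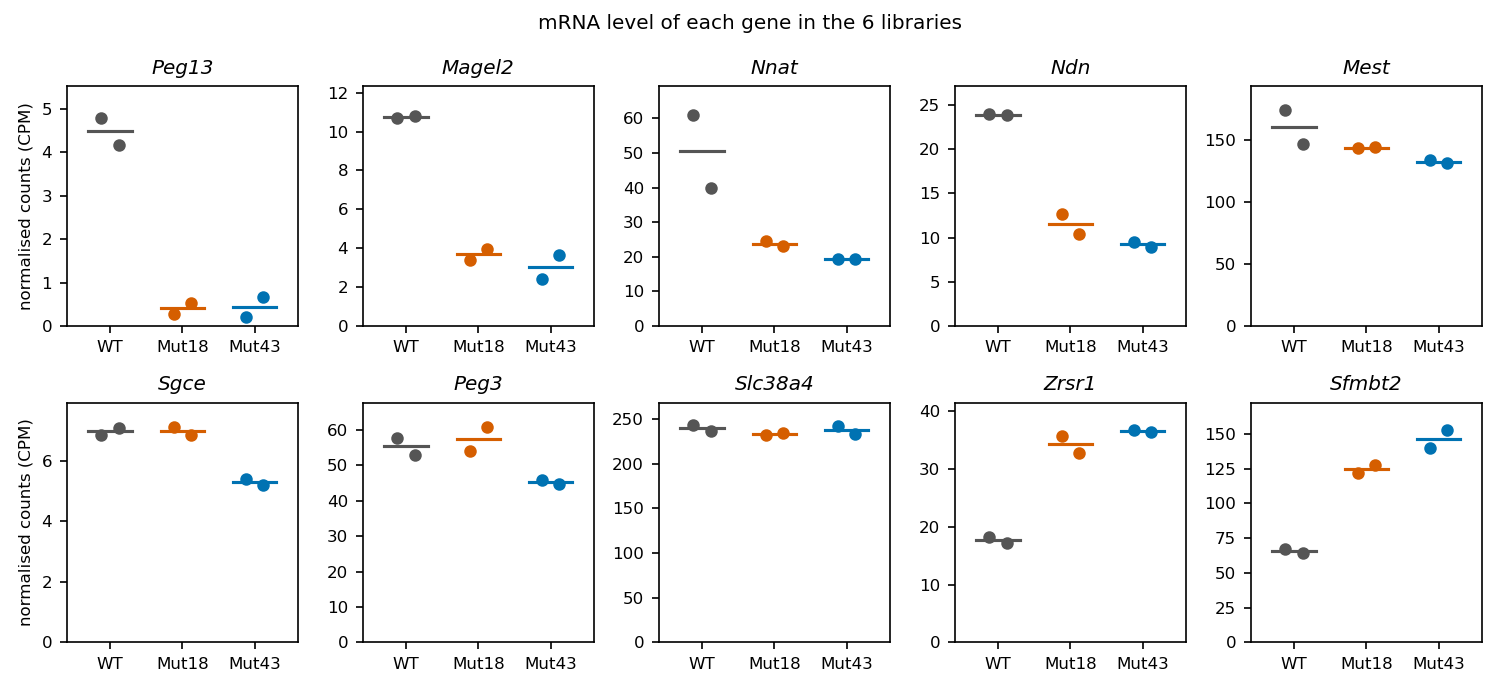
Normalised counts (CPM, linear axis from 0) of each gene in the 6 mRNA-seq libraries, grey for WT, orange for Mut18 and blue for Mut43; points are libraries and bars the mean of 2. All 4 mutant libraries of Peg13, Magel2, Nnat and Ndn lie below both WT libraries, and those of Zrsr1 and Sfmbt2 lie above them.

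Peg13 is a noncoding RNA transcribed from an intron of Trappc9, in a domain where Kcnk9 is expressed from the maternal copy in brain. The WT libraries held 74 and 64 counts of it, those of Mut18 4 and 8, and those of Mut43 3 and 10. The groups did not overlap, and the highest mutant library lay far below the lower WT library. In CPM the level was 4.48 ± 0.447 (SD, n = 2) in WT and 0.420 ± 0.223 (n = 4) in the mutants. Peg13 fell by 3.39 on the log2 scale (95% interval -4.00 to -2.78, edgeR adjusted p = 8.57e-09), or 10.5-fold, and only 12 of 14061 tested genes had a lower log2 fold change. With so few counts in the mutants, the size is less certain than the direction, and leaving out each library in turn gave log2 fold changes from -3.71 to -3.16. Trappc9, the host gene on the same strand, was counted 223 and 205 times in WT and 221 to 252 times in the mutants. Its log2 fold change was 0.20 (adjusted p = 0.0714). Peg13 and Trappc9 share no exonic base in GENCODE, so reads of spliced Trappc9 mRNA do not fall on Peg13.

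Ndn and Magel2 lie 26748 bp apart on chromosome 7, in the region homologous to that of Prader-Willi syndrome, and both encode proteins of the MAGE family. Ndn (necdin) is known as a growth suppressor of postmitotic neurons. WT libraries held 369 and 366 counts of it, Mut18 libraries 190 and 155, and Mut43 libraries 141 and 132. Every mutant library was below both WT libraries, and the WT libraries were nearly equal. Ndn fell by 1.20 on the log2 scale (95% interval -1.42 to -0.99, edgeR adjusted p = 8.11e-09), or 2.301-fold. Magel2, part of a ubiquitin ligase complex that acts on endosomes, had 165 and 166 counts in the WT libraries, 51 and 59 in those of Mut18 and 36 and 54 in those of Mut43. Here too the groups were well apart. Magel2 fell by 1.68 on the log2 scale (95% interval -1.998 to -1.36, adjusted p = 2.06e-08), or 3.20-fold.

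The neighbours of this pair differed. Peg12, another paternally expressed gene of the domain, was counted 50 and 66 times in WT and 25 to 31 times in the mutants, and fell by 0.97 on the log2 scale (adjusted p = 0.000548). Mkrn3, which encodes a ring finger protein and lies between Peg12 and Magel2, was counted 101 and 104 times in WT and 90 to 112 times in the mutants. The groups of Mkrn3 overlapped, and its log2 fold change was -0.04 (95% interval -0.32 to 0.25, adjusted p = 0.854). Ube3a, the maternally expressed ubiquitin ligase gene of the domain in neurons, had a log2 fold change of 0.08 (adjusted p = 0.224).

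Nnat encodes neuronatin, a small membrane protein of the endoplasmic reticulum that is abundant in developing brain. The 940 and 613 counts in WT compare with 367 and 345 counts in Mut18 and 285 and 286 counts in Mut43. All mutant libraries were below both WT libraries, but the WT replicates themselves stood far apart, at 60.9 and 39.9 CPM. Nnat fell by 1.23 on the log2 scale (95% interval -1.48 to -0.98, edgeR adjusted p = 4.98e-08), or 2.34-fold. Without WT replicate 1 the log2 fold change was -0.89 (adjusted p = 3.01e-08), which was no longer past 2-fold. Blcap, within whose span Nnat lies on the opposite strand, fell by 0.21 on the log2 scale (adjusted p = 0.0246), and the 2 genes share no exonic base.

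Fibroblast markers were lower in the mutants too, while lists of other cell types moved in both directions. Median log2 fold changes were -1.31 for fibroblast, -1.10 for neural, -0.38 for primitive endoderm and 0.05 for trophoblast markers. Over all tested genes 23.5% were called higher and 24.5% lower, and 3.28% and 5.65% with 2-fold. Of 11 tested fibroblast markers, a list chosen to cover feeder cells, 10 were lower and 0 were higher in the mutants by edgeR's test, 7 of them beyond 2-fold, led by Col6a1 (log2 fold change -3.13), Postn (-2.22), Col3a1 (-2.16) and Dcn (-1.84). The summed level of the 12 listed fibroblast genes was 363 and 256 CPM in WT and 152 to 200 CPM in the mutants, and Lum was at 0 in 1 library of each line. Without WT replicate 1, the log2 fold changes were -1.06 for Col6a1, -1.37 for Postn, -1.06 for Col3a1 and -1.03 for Dcn. They were -1.30 for Fbln2, -1.35 for Prrx1 and -1.23 for Twist1, and -0.34 to -0.07 for Col1a1, Col1a2, Pdgfrb and Thy1. Fbln2 was nearly equal in the WT libraries, at 48.2 and 47.2 CPM, against 16.8 to 21.5 CPM in the mutants. Of 5 tested neural markers, 3 were lower, all beyond 2-fold (Nes -1.51, Map2 -1.17 and Sox1 -1.10). The other 2 were higher, 0 of them beyond 2-fold (with Tubb3 at 0.63). The sum of the 5 was 290 to 301 CPM in WT and 214 to 231 CPM in the mutants. None of the 5 neural markers was at 0 in any library. Of 5 tested primitive endoderm markers 1 was higher (Gata4) and 1 was lower (Dab2). Of 5 tested trophoblast markers 1 was higher (Tfap2c) and 2 were lower (Cdx2 and Krt8). No called marker of these lists was beyond 2-fold. Their sums were 23.0 to 26.8 CPM in WT and 14.4 to 17.6 CPM in the mutants for primitive endoderm, and 101 to 107 CPM in WT and 92.8 to 105 CPM in the mutants for trophoblast. The part of these cell types in the fall of Peg13, Magel2, Nnat and Ndn was not tested. Without WT replicate 1, the library with the most fibroblast transcripts, the log2 fold changes were -3.28 for Peg13, -1.68 for Magel2, -1.20 for Ndn and -0.89 for Nnat. WT replicate 2 still held more fibroblast transcripts than the mutants, at 256 CPM against 152 to 200 CPM. In bulk RNA, fewer cells expressing a gene and less RNA of it per cell cannot be told apart.

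Sfmbt2 and Zrsr1 were the 2 genes that rose. Sfmbt2 encodes a polycomb-group protein with MBT domains that is needed for trophoblast development. It was counted 1034 and 988 times in WT, while Mut18 libraries held 1829 and 1904 counts and Mut43 libraries 2067 and 2263. The lines were separate, with Mut43 highest. In CPM Sfmbt2 was at 65.7 ± 1.94 (SD, n = 2) in WT and 135 ± 13.6 (n = 4) in the mutants. The log2 fold change was 1.04 (95% interval 0.90 to 1.19, edgeR adjusted p = 2.11e-10), or 2.06-fold, just past the 2-fold mark. Without Mut43 replicate 2 it was 0.98.

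Zrsr1 encodes a splicing factor related to U2AF and arose by retroposition into an intron of Commd1. WT libraries held 281 and 265 counts, against 538 and 488 counts for Mut18 and 544 and 539 for Mut43. All mutant libraries were above both WT libraries. The log2 fold change was 1.00 (95% interval 0.83 to 1.16, edgeR adjusted p = 2.21e-09), or 1.996-fold, just short of the 2-fold mark. As a chromosome 11 gene it was read against the shift of that chromosome, and it lay 0.61 above the chromosome's median on the log2 scale, 1.53-fold, with 46 of 933 genes higher. Commd1 rose by 0.30 on the log2 scale (adjusted p = 0.000177), from 663 and 666 counts in WT to between 777 and 824 in the mutants. Zrsr1 shares 412 exonic bases, 9.17% of its exons, with Commd1 on the opposite strand. Whether strand was used in counting is not given in the sources used here, so part of the Zrsr1 counts may belong to Commd1.

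Mest, Sgce, Peg3 and Slc38a4 changed little or not detectably. Mest, which encodes a hydrolase-like membrane protein of mesoderm, had 2678 and 2252 counts in the WT libraries, 2153 and 2148 in those of Mut18 and 1973 and 1943 in those of Mut43. The lower WT library lay just above the highest mutant library. Mest fell by 0.22 on the log2 scale (95% interval -0.33 to -0.10, edgeR adjusted p = 0.00374). Without WT replicate 1, the library with the most fibroblast transcripts, the log2 fold change was -0.08 (adjusted p = 0.298). Mest shares 912 exonic bases, 23.12% of its exons, with Copg2 on the opposite strand, and Copg2 rose by 0.21 on the log2 scale (adjusted p = 0.00798).

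Sgce encodes epsilon-sarcoglycan and starts 99 bases from Peg10, a retrotransposon-derived gene on the other strand. The WT libraries held 106 and 109 counts, those of Mut18 107 and 102, and those of Mut43 80 and 77. Mut18 overlapped WT and Mut43 lay below both. Over both clones the log2 fold change of Sgce was -0.18 (95% interval -0.50 to 0.13, edgeR adjusted p = 0.322), while Peg10 rose by 0.25 (adjusted p = 3.42e-05), from 5791 and 5909 counts to between 6489 and 6933.

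Peg3 encodes a large zinc finger protein. In WT 892 and 813 counts were found, with 814 and 905 for Mut18 and 677 and 664 for Mut43. Mut18 again overlapped WT and Mut43 lay below both. The log2 fold change over both clones was -0.11 (95% interval -0.29 to 0.08, adjusted p = 0.329), and it passed the test when Mut18 replicate 2 was left out (-0.20, adjusted p = 0.0375). Slc38a4, an amino acid transporter, had the highest level of the 10 per length of transcript. Its counts were 3755 and 3634 in WT and 3455 to 3587 in the mutants. The difference was within the spread of the libraries, with a log2 fold change of -0.03 and an interval of -0.11 to 0.05 (adjusted p = 0.585).

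Each clone was then compared with WT in a fit with 3 groups. In Mut18, 2 of the 10 genes were higher (20.3% of all tested genes) and 5 were lower (21.0%), and with the 2-fold requirement 0 were higher (2.79%) and 4 were lower (4.74%). In Mut43, 2 were higher (22.9%) and 7 were lower (23.9%), and with the 2-fold requirement 2 were higher (3.49%) and 4 were lower (6.81%). The 4 genes beyond 2-fold lower were Peg13, Magel2, Nnat and Ndn in both clones, with log2 fold changes of -3.46, -1.55, -1.08 and -1.05 in Mut18 and of -3.33, -1.82, -1.39 and -1.37 in Mut43. Leaving out 1 library moved Peg13 to between -4.40 (without Mut43 replicate 2) and -2.71 (without Mut43 replicate 1) in Mut43, and to between -4.03 (without Mut18 replicate 2) and -3.03 (without Mut18 replicate 1) in Mut18. Sfmbt2 stood at 0.93 in Mut18 and 1.15 in Mut43, and Zrsr1 at 0.95 and 1.04. Peg3 (-0.29, adjusted p = 0.00145) and Sgce (-0.40, adjusted p = 0.0373) were called in Mut43 against WT, and had log2 fold changes of 0.05 and -6.7e-05 in Mut18. Without WT replicate 1, Nnat in Mut18 was at -0.74. Both comparisons use the same 2 WT libraries, so they are not independent of each other.

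**Figure D2:**
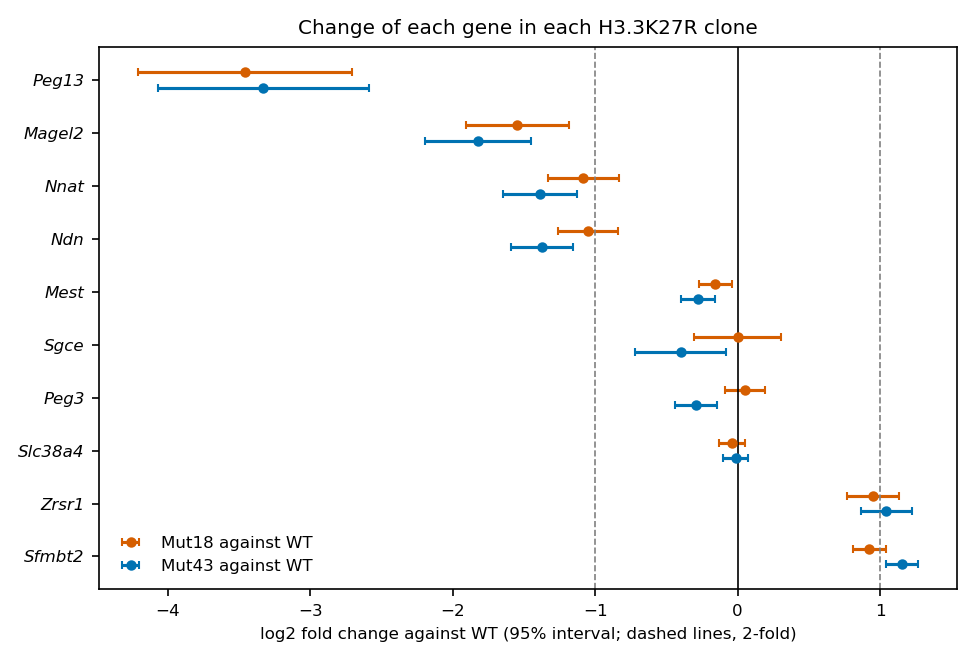
Log2 fold change of each gene against WT, orange for Mut18 and blue for Mut43, with 95% intervals from edgeR's 3-group fit; dashed lines mark 2-fold. Peg13, Magel2, Nnat and Ndn lie to the left of -1 in both clones and Zrsr1 and Sfmbt2 near 1, while Slc38a4 lies near 0.

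The clones were also set against each other in the same 3-group fit, in which the WT libraries enter the filter, the scaling and the estimate of the spread but not the difference itself. By edgeR's test 1 of the 10 genes was higher in Mut18 than in Mut43 and 1 was lower, where 0.263% and 0.0640% of all tested genes were called. Peg3 was the gene that was higher in Mut18, at 57.5 ± 4.71 CPM (SD, n = 2) against 45.2 ± 0.711 in Mut43, with a log2 difference of 0.34 (95% interval 0.20 to 0.49, adjusted p = 0.0256). Sfmbt2 was lower in Mut18, at 125 ± 4.44 CPM against 146 ± 9.06, with a log2 difference of -0.23 (95% interval -0.33 to -0.12, adjusted p = 0.0453). Both calls were lost when any mutant library was left out, with DESeq2 and without a filter on low counts. For Ndn, Nnat, Mest and Sgce the libraries of Mut43 were also all below those of Mut18, with log2 differences of 0.32, 0.30, 0.12 and 0.40, and none passed (adjusted p from 0.386 to 0.579). The share of all tested genes separated in this way was not counted, so this separation is not read as a clone difference. The sum of fibroblast markers also differed between the clones, at 193 and 200 CPM in Mut18 and 152 and 152 CPM in Mut43, and its part in these differences was not tested.

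Genes around the 10 were examined for a shared shift of their domains. The list of domain genes and host genes held 26 names, of which 19 were in the table and 18 were tested. In the mutants 3 were higher (Copg2, Peg10 and Commd1) and 6 were lower (Peg12, Casd1, Ppp1r9a, Pon2, Blcap and Slc38a1), and none passed 2-fold. Over all tested genes, 23.5% were called higher and 24.5% lower. The median log2 fold change of the 18 was -0.12. Casd1 and Pon2, which flank the pair of Sgce and Peg10 at different distances, fell by 0.62 and 0.81 (adjusted p = 5.28e-06 and 2.31e-07), while Sgce between them did not pass the test. For Peg13 the only other tested gene within 250 kb was Trappc9, given above. The 4 tested genes around Zrsr1 had log2 fold changes of 0.30 to 0.55, all below that of Zrsr1. Chromosome 11 as a whole had a median of 0.39 and quartiles of 0.21 and 0.52, so these values show no shift particular to this domain. Among 5 neighbours of Nnat, Src fell most, by 0.49 (adjusted p = 2.41e-05). For Sfmbt2 the only tested neighbour was Mir467c, a microRNA gene in its intron on the same strand, with a log2 fold change of 0.78 (adjusted p = 0.124). Mir467c had a mean of only 10.2 counts per library.

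**Figure D3:**
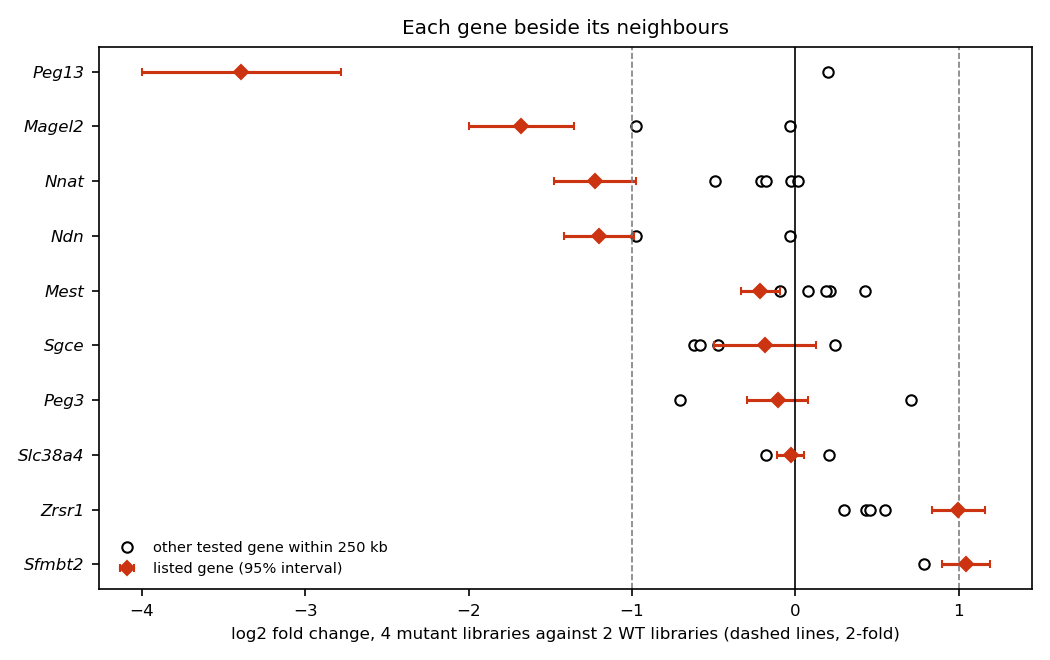
Log2 fold change of each gene (red diamonds, with 95% interval) and of the tested genes within 250 kb that are not among the 10 (open circles) in the 4 mutant against the 2 WT libraries; dashed lines mark 2-fold. Peg13 lies apart from Trappc9 (0.20). Magel2 (-1.68) and Ndn (-1.20) lie to the left of Peg12 (-0.97) and further from Mkrn3 (-0.04). The 4 neighbours of Zrsr1 lie between 0.30 and 0.55, on a chromosome with a median of 0.39.

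Other paternally expressed genes also moved in both directions. Of 12 tested, 2 were higher and 5 were lower by edgeR's test, and none passed 2-fold over both clones. Of all tested genes, 23.5% were called higher and 24.5% lower. Plagl1, a zinc finger gene, fell by 0.98 on the log2 scale (adjusted p = 1.25e-07), from 366 and 292 counts in WT to between 144 and 180 in the mutants. Dlk1, a Notch-related membrane protein gene, fell by 0.85 (adjusted p = 4.06e-05), from 153 and 133 counts to between 66 and 90. The long noncoding Kcnq1ot1 fell by 0.56 (adjusted p = 2.21e-05), and Peg12 is given above.

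Of 5 genes whose imprint has been described as resting on maternal H3K27me3, 4 were higher and 0 were lower, where 23.5% of all tested genes were called higher. Beside Sfmbt2, Gab1, an adaptor of receptor tyrosine kinases, rose by 0.56 on the log2 scale (adjusted p = 6.08e-09), from 6105 and 6021 counts in WT to between 8218 and 9192. Smoc1 rose by 0.47 (adjusted p = 0.000138) and Jade1 by 0.12 (adjusted p = 0.0166). Slc38a4, the other member of this list among the 10, did not pass the test.

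Of 12 genes of imprint protection and DNA methylation, 6 were higher and 2 were lower, where 23.5% and 24.5% of all tested genes were called. Dppa3, which protects maternal methylation in the zygote, rose by 1.85 on the log2 scale (adjusted p = 2.38e-13), from 260 and 236 counts to between 803 and 933. Dnmt3b, a de novo methyltransferase, fell by 0.78 (adjusted p = 9.68e-13), Dnmt3l rose by 0.32 (adjusted p = 3.87e-05), and Zfp445 fell by 0.28 (adjusted p = 8.00e-05). DNA methylation was not measured in the files used here.

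Levels of different genes were compared per kilobase of exon (RPKM, over the union of GENCODE exons). In WT, Slc38a4 was highest at 55.5 and 57.1 RPKM, followed by Mest at 37.2 and 44.0 and Nnat at 21.8 and 33.3. Sfmbt2 (7.04 and 7.34) and Ndn (6.45 and 6.48) were next, ahead of Peg3 (3.97 and 4.34), Zrsr1 (3.84 and 4.06) and Magel2 (2.31 and 2.33). Peg13 (0.882 and 1.02) and Sgce (0.648 and 0.669) were lowest. Of neighbours in this order, only Peg3 and Zrsr1 overlapped between their WT libraries. In the mutants Sfmbt2 reached 13.3 to 16.7 RPKM, above Nnat in 3 of the 4 libraries (10.5 to 13.3), and Peg13 became the lowest at 0.0429 to 0.143.

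For each gene past 2-fold, the most similar genes over the 6 libraries were listed by Pearson's r of log2(CPM + 0.5), among genes of at least 10 CPM. Closest to Ndn were Cnn2 and Rsu1, to Magel2 Dab2ip and Tmem55a, to Peg13 Tmem132a and Gm3558, to Nnat Gucd1 and Sort1 and to Sfmbt2 Rfwd3 and Map4k4. The values of r lay between 0.997 and 0.9996. They rest on 6 points that form 2 levels, WT and mutant, so they describe a shared contrast and little more.

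ATAC-seq peaks around the 10 genes were shared between the lists about as often as peaks elsewhere, and the start of Peg13 was 1 of 2 regions with a peak in WT only. The lists held 63588 to 78536 peaks per library, and merging peaks that share at least 1 base gave 89596 regions, of which 51 lay within 20 kb of one of the genes. Of these, 29 regions, or 56.9%, had a peak in all 6 lists, against 54.7% of all regions. A peak in both WT lists and in no mutant list was found at 2 regions, or 3.92%, against 3.25% of all regions. The opposite pattern, a peak in all 4 mutant lists and in no WT list, was found at 0 regions, against 0.733% of all regions. Peaks within 20 kb made up 0.0522% and 0.0593% of the WT lists and 0.0568% to 0.0653% of the mutant lists. The difference of 0.00511 percentage points gave p = 0.20 in a two-sided exact permutation test over 15 splits, a test that cannot go below 0.0667 and so cannot pass 0.05. Without WT replicate 1 the difference was 0.00155, and without WT replicate 2 it was 0.00868. A missing peak means that the authors' caller made no call, not that there was no signal, and the lists give no read numbers.

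The start of Peg13 had a peak in both WT lists and in no mutant list. Its region, chr15:72809912-72810479, holds the stretch printed above, and the fold enrichment over background was 7.20 and 4.64 in the WT lists. The other region near the gene, centred 16109 bp downstream of its start, had peaks in all 6 lists with fold enrichments of 6.71 to 8.98. The WT peaks at the start were unequal, with a -log10 q of 22.4 and 6.96, and only 1 of them was among the 50000 strongest peaks of its list. With a minimum -log10 q of 10, no region near the 10 genes was left in the WT-only class.

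**Figure D4:**
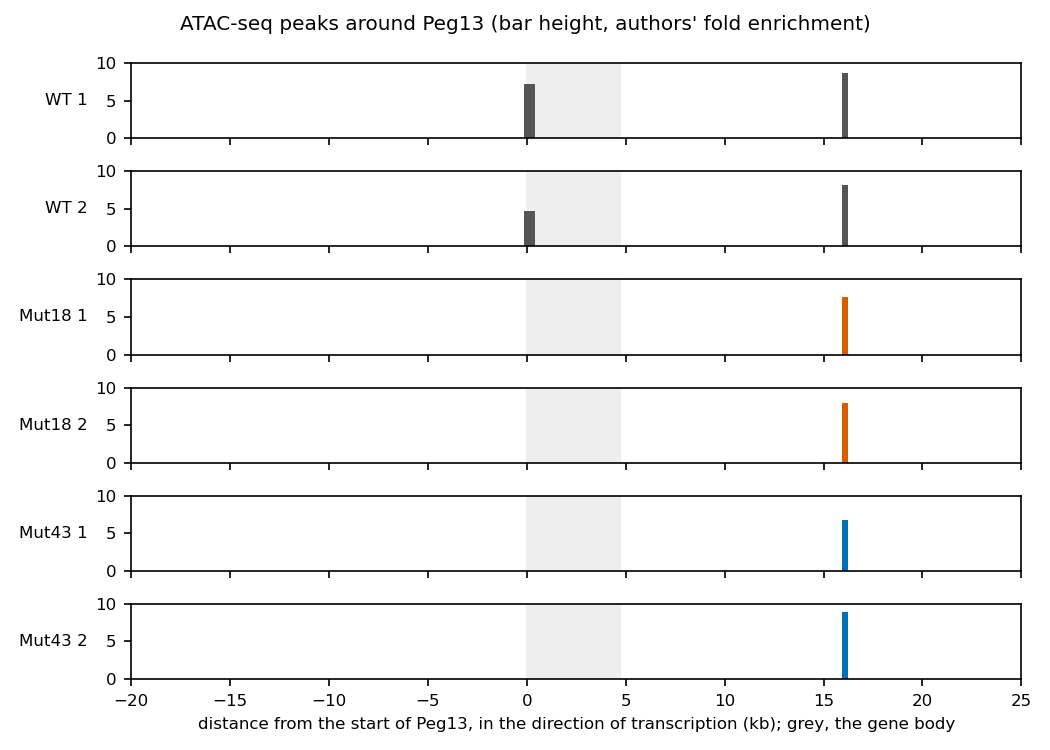
ATAC-seq regions around Peg13 in the 6 lists, by distance from its start in the direction of transcription (kb), with MACS2 fold enrichment as bar height and the gene body in grey. The region at the start appears in the 2 WT lists only, and the region 16109 bp downstream appears in all 6 lists with 6.71 to 8.98.

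The second WT-only region lay over an exon of Sgce, 38023 bp from its 5′ end, at chr6:4709045-4709324, with fold enrichments of 8.03 and 6.22 and a -log10 q of 20.5 and 9.76. Of 8 regions near Sgce, 3 had a peak in all lists. Its start, shared with Peg10, had a peak in 1 WT list and 3 mutant lists, at fold enrichments of 3.87 to 4.58.

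At the other starts the lists did not separate the genotypes. Within 1000 bp of a GENCODE start, 6 of the 10 genes had a peak in all 6 lists. Magel2, whose mRNA fell 3.20-fold, had fold enrichments of 7.77 and 7.96 in WT and 6.55 to 8.73 in the mutants. Nnat had 5.11 and 6.44 in WT and 4.35 to 5.40 in the mutants, at a region centred 1341 bp inside the gene next to a second transcript start. Zrsr1, which rose, had 7.29 and 8.11 in WT and 7.32 to 8.71 in the mutants. Sfmbt2, which rose as well, had weak start peaks in 5 lists, at 3.65 to 4.77. For Ndn the result depended on the annotation, since no list had a peak at the GENCODE start, but all 6 lists had one over the RefSeq start, in the region chr7:62348131-62349126, with 11.2 and 11.8 in WT and 10.95 to 13.4 in the mutants. Counting by RefSeq starts, a choice made after the data had been seen, left Nnat with 0 lists instead of 6. The starts of Mest, Peg3 and Slc38a4 had peaks in all lists with overlapping ranges.

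**Figure D5:**
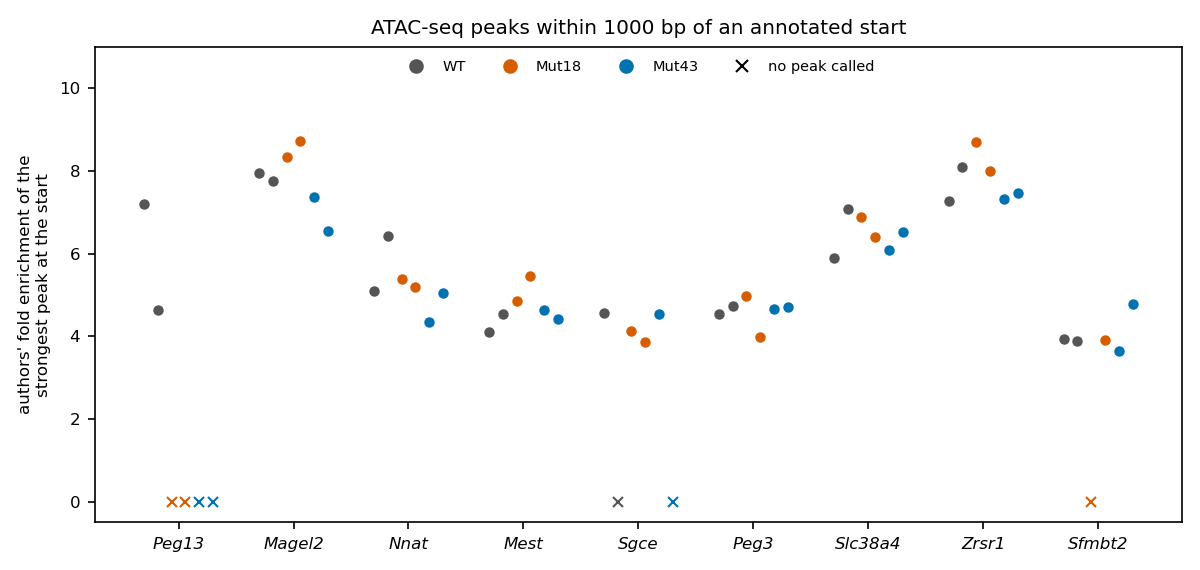
MACS2 fold enrichment of the strongest ATAC-seq peak within 1000 bp of a GENCODE start, for each gene and list, grey for WT, orange for Mut18 and blue for Mut43; crosses mark lists with no peak. Ndn, with no peak at its GENCODE start, is left out. Peg13 has peaks at 7.20 and 4.64 in WT and 4 crosses for the mutants, while values of Magel2, Nnat, Mest, Peg3, Slc38a4 and Zrsr1 overlap.

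Regions within the longer genes showed other partial patterns. A region in an intron of Slc38a4, 34213 bp from its 5′ end, was called in 3 mutant lists, at 6.89 to 7.98, and in no WT list. Another, 52991 bp from that end, had peaks in all lists, at 6.20 and 8.18 in WT and 9.49 to 12.8 in the mutants. The groups did not overlap there, although the mRNA level did not differ beyond the spread. Other regions with a peak in all lists were separated as well. The mutants were higher in such regions near Peg3, Sfmbt2, Zrsr1 and Slc38a4 itself, and lower near Ndn and Sgce. The region near Zrsr1 was the one next to a start of Cct4. The share of all regions separated in this way was not counted. Whether such separation was more frequent than between arbitrary groups of libraries was not tested. A region upstream of Sgce, its near edge 14642 bp from the start, was called in all 4 mutant lists, at 5.73 to 10.5, and in 1 WT list, at 6.21. An intronic region of Sfmbt2, 89195 bp from its 5′ end, was called in both WT lists and in 1 mutant list.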

How the data were processed

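mRNA-seq and ATAC-seq were each analysed in 6 libraries, 2 of WT J1 ESCs and 2 of each of the H3.3K27R clones Mut18 and Mut43, grouped by their titles. The ChIP-seq samples were not analysed here. The authors deposited raw counts per gene, as whole numbers without normalization, for mRNA-seq. For ATAC-seq the authors deposited 1 peak list per library, with replicates not pooled, giving per peak the fold enrichment over background as a linear ratio, −log10 p, −log10 q (at least 6) and a score. The score deposited by the authors is the caller's rescaled −log10 q and was not used. The submitters' processing notes name the mm10 build, STAR, Bowtie2 2.3.4.2, SAMtools, MACS2, deepTools 3.3.0 and DESeq2. The gene annotation and the use of strand in counting are not given in the sources used here.

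Counts were tested in R 4.3.3 with edgeR 4.0.16 (minimum count 10, minimum total count 15, TMM, quasi-likelihood F-test, Benjamini-Hochberg adjustment over 14061 genes), WT (n = 2) against mutants (n = 4), and in a fit with 3 groups for the clones. A gene was called at an adjusted p under 0.05, with and without a 2-fold change. CPM were scaled by TMM. With 14992756 to 15143998 counts per library, precision at Peg13 was limited by counting. The procedure was tested on simulated data. Symbols were placed on GENCODE M21 (GRCm38), 15616 of them directly, another 476 by way of RefSeq, while 171 could not be placed. No peak ran past the end of any of 21 chromosomes of that build. Peaks sharing at least 1 bp were merged into regions in Python 3.11.15 with pandas 2.3.3, and promoter sequences came from RefSeq (GRCm38.p6). RPKM were computed from counts over the union of GENCODE exons.

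The 10 genes, the gene lists and the naming rule were chosen with earlier results of these data known. The rule names the 10 genes, the genes of their domains, up to 4 called genes of largest change in every other list, and the 2 genes most alike to each gene past 2-fold. The lists are domain and host genes, other paternally expressed genes, genes with an H3K27me3 imprint, and genes of imprint protection and DNA methylation. Further lists hold markers of ESCs, fibroblasts, primitive endoderm, trophoblast and neural cells. Src, Mir467c and the single ATAC-seq regions fall outside this rule and were picked from the windows of 250 kb and 20 kb after their values were seen. Alternatives were DESeq2 1.42.0, limma 3.58.1 (voom), other normalizations and filters, a replicate block, leaving out each library, and other peak thresholds, windows and merging rules. The count of peaks by RefSeq starts was added with the data known.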

Additional observations from a re-analysis of the deposited data

Results flagged for a closer look

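Among the 10 genes, 2 differed between the mutant clones by edgeR's test of Mut18 against Mut43. Of all tested genes, 0.263% were called higher in Mut18 and 0.0640% lower. Both calls were lost when any mutant library was left out, with DESeq2 and without a filter on low counts. Peg3 was higher in Mut18 than in Mut43, with a log2 difference of 0.34 (edgeR adjusted p = 0.0256), and both of its Mut18 libraries were above both Mut43 libraries. Sfmbt2 was lower in Mut18, with a log2 difference of -0.23 (edgeR adjusted p = 0.0453), again without overlap of the libraries. No mutant library stood apart from the other 3 in any of the 10 genes by Dixon's criterion, the closest being Mut43 replicate 1 for Slc38a4, whose gap was 0.794 of the range. Groups of 2 WT libraries are too small for this criterion, so the gap between the WT replicates of Nnat was not tested.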

How the results depend on the processing

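Over both clones, the directions of Peg13, Magel2, Nnat, Ndn, Mest, Sfmbt2 and Zrsr1 and their calls at an adjusted p under 0.05 were the same under each normalization, filter and tool tried, and with the exception of Mest (without WT replicate 1) when any single library was left out. Without each library in turn, 6 to 8 genes were called, and 4 to 6 with 2-fold. In the main fit 23.5% of all tested genes were called higher and 24.5% lower, and 3.28% and 5.65% with 2-fold. Shares for each clone are given above, and those under the other settings are not given here. Under other normalizations, filters and tools 5 to 6 of the 10 genes were past 2-fold, since Zrsr1 lies at that mark. For Mut18 against WT these ranges were 6 to 7 and 3 to 4, and for Mut43 7 to 9 and 6 to 6. For Mut18 against Mut43 they were 0 to 2 and 0 to 0, and the 2 calls became 1 with upper quartile factors, 1 with the replicate block, 0 with no filter and 0 with DESeq2. The replicate block changed no other count by over 1.5 times, and replicate numbers did not pair the samples (correlation of deviations -0.02, 0.03 and -0.01). Leaving out each library gave 2 to 4 WT-only and 0 to 1 mutant-only regions, with the latter at 1 without WT replicate 1 or Mut43 replicate 1. WT-only regions numbered 1 with the 50000 strongest peaks, 0 with a −log10 q of at least 10 and 1 when merged by summits. The 6 genes with a start peak in every list became 4 with the 50000 strongest peaks of each list. Signs turned only for differences that passed no test. Sgce in Mut18 (-6.7e-05) became 0.00302 with RLE factors, 0.0255 with factors from outside chromosome 11, 0.0104 without a filter, 0.00527 with a CPM filter and 0.00298 with DESeq2, and -0.0208 to 0.0333 without each library. Slc38a4 in Mut43 became 0.0111 with factors from outside chromosome 11, and -0.0368 to 0.0227 without each library. Without each library Peg3 in Mut18 ranged from -0.0264 to 0.14, and between the clones Peg13 from -0.74 to 0.96 and Slc38a4 from -0.0560 to 0.00298. The causes were not tested. Low counts limit Peg13, and the number of WT libraries limits all values.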
